A study of Homo sapiens with 4 samples.

Results

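The genes described here are 35 genes of mitosis and the spindle, taken as a list given by name and read on 4 arrays of Hs578T, a triple-negative breast cancer cell line with mesenchymal features. Of the 35, 34 had a probe set with a single gene symbol, among 18132 genes measured that way. The exception was PTTG1, which encodes securin, the inhibitor of separase. Its probe set also carries another symbol, so it is given no value. Each gene was read from its brightest such probe set, and all 34 lay above 6.78, the median of all values, in their mean over the arrays.

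The arrays fall into 2 groups, per the labels. ELK3 knockdown (2 arrays, numbered 1 and 5) is Hs578T made stably deficient with lentiviral shRNA against ELK3, an ETS family transcription factor. ELK3 sh control (2 arrays, numbered 1 and 2) is labelled as the same line with control shRNA. Both were grown in serum-containing medium with insulin, and per the labels' protocols the transduction used protamine sulfate. What the array numbers denote (shRNA constructs, clones or cultures) is left unsaid in the labels, so the p-values measure the spread between these arrays, which may be technical. The study's title concerns ELK3, the chemokine CXCL16 and natural killer cells, so the mitotic genes were not its stated question. Values are RMA log2 signals, so a difference of 1 is a 2-fold difference, and the number of arrays limits the precision.

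Mitosis is driven by CDK1 bound to cyclins A and B, which CDC25 phosphatases switch on and the anaphase-promoting complex switches off by marking cyclin B and securin for destruction. Polo and Aurora kinases build the spindle. The checkpoint proteins hold the anaphase-promoting complex back until every kinetochore has caught microtubules, and the midzone proteins then place the cleavage furrow. Most of these genes are transcribed late in the cell cycle through promoters that carry a cell cycle genes homology region (TTTGAA or TTCGAA) and CCAAT boxes. The MuvB core binds the first of these together with repressors in resting cells and with MYBL2 and FOXM1 in dividing ones, and NF-Y binds the CCAAT box. In a culture of mixed cycle phases, a larger share of cells in G2 and mitosis and more RNA per such cell cannot be told apart.

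The arrays stand far apart by group. Over 49293 probe sets, the knockdown arrays correlated at 0.996 and the control arrays at 0.998, against 0.902 to 0.904 between groups, as a description across probe sets. ELK3 had 8.09 and 7.92 in the knockdown arrays, against 10.05 and 10.07 in the control arrays (log2 change -2.06). All 15 markers of a mesenchymal breast cancer line were lower in the knockdown arrays. Their mean was 7.77 and 7.68 in the knockdown arrays and 12.83 and 12.78 in the control arrays. In the knockdown arrays 7 of the 15 lay below the median of all values, namely POSTN, COL1A2, COL6A3, TGFBI, AXL, THY1 and CDH11, and in the control arrays 0 did. Of 9 epithelial markers, KRT8, KRT18 and KRT19 were higher, and the other 6 had a limma adjusted p of 0.05 or more. EPCAM and CDH1 were near the dim end in both groups. CLDN3, CLDN4, GRHL2 and ESRP1 differed by -0.03 to 0.41. Blood cell markers averaged 5.68 and 5.65 in the knockdown arrays, against 5.63 and 5.57 in the control arrays, and endothelial markers 5.55 and 5.61, against 5.88 and 5.90. POSTN, a matrix protein gene, averaged 4.29 in the knockdown arrays and 13.61 in the control arrays. Whether the knockdown arrays hold the same line as the control arrays was not tested, so every difference below compares the arrays as labelled. The part of these shifts in the results was not tested.

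Most of the mitotic genes changed by less than 2-fold, and more rose than fell. At a limma adjusted p under 0.05, 22 of the 34 rose in the knockdown arrays, 5 fell and 7 did not pass. The background is wide: 50.8% of all genes passed, 29.5% higher and 21.3% lower. Among the 10388 genes brighter than the median, as all 34 are, 69.3% passed, 41.9% higher and 27.3% lower. These brighter genes are only a partial match: the median of the 34 on an array was 10.29 to 10.50, far above the cut of 6.78. No set closer in brightness was drawn, here or for the lists below. The mitotic genes passed at 79.4%, 64.7% higher and 14.7% lower. Their median log2 change was 0.23, against -0.01 over all genes and 0.12 over the brighter ones. Their median change regardless of direction was 0.33, against 0.30 over all genes and 0.49 over the brighter ones. A called change over 2-fold was found for 2 of 34, or 5.88%, against 17.7% of all genes and 23.2% of the brighter ones. These 2 were CDC25C, which rose, and ANLN, which fell. The groups did not overlap for 32 of 34, or 94.1%, against 75.3% of all genes and 86.8% of the brighter ones. The exceptions were CENPF and KIF11. The series' design text selected genes by a fold over 1.5 and an unadjusted p under 0.05, and at that choice 7 were higher and 2 lower, or 9 of 34, against 31.7% of all genes. Without control replicate 1 the counts were 12 higher and 3 lower, or 44.1% called, against 43.1% of all genes. With no moderation of the variance they were 7 higher and 1 lower, or 23.5% called, against 28.1% of all genes. Set against all genes, the mitotic genes' larger share called in either direction was thus absent in both cases. By the fold and unadjusted p it was absent too, at 26.5%. It was present in the other settings, at 58.8% against 50.1% with no intensity trend and 76.5% against 50.8% under quantile normalisation. The share that rose was larger than that of all genes in every setting tried. It was 20.6% against 16.1% with no moderation, and 20.6% against 19.1% by the fold and unadjusted p.

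**Figure D1:**
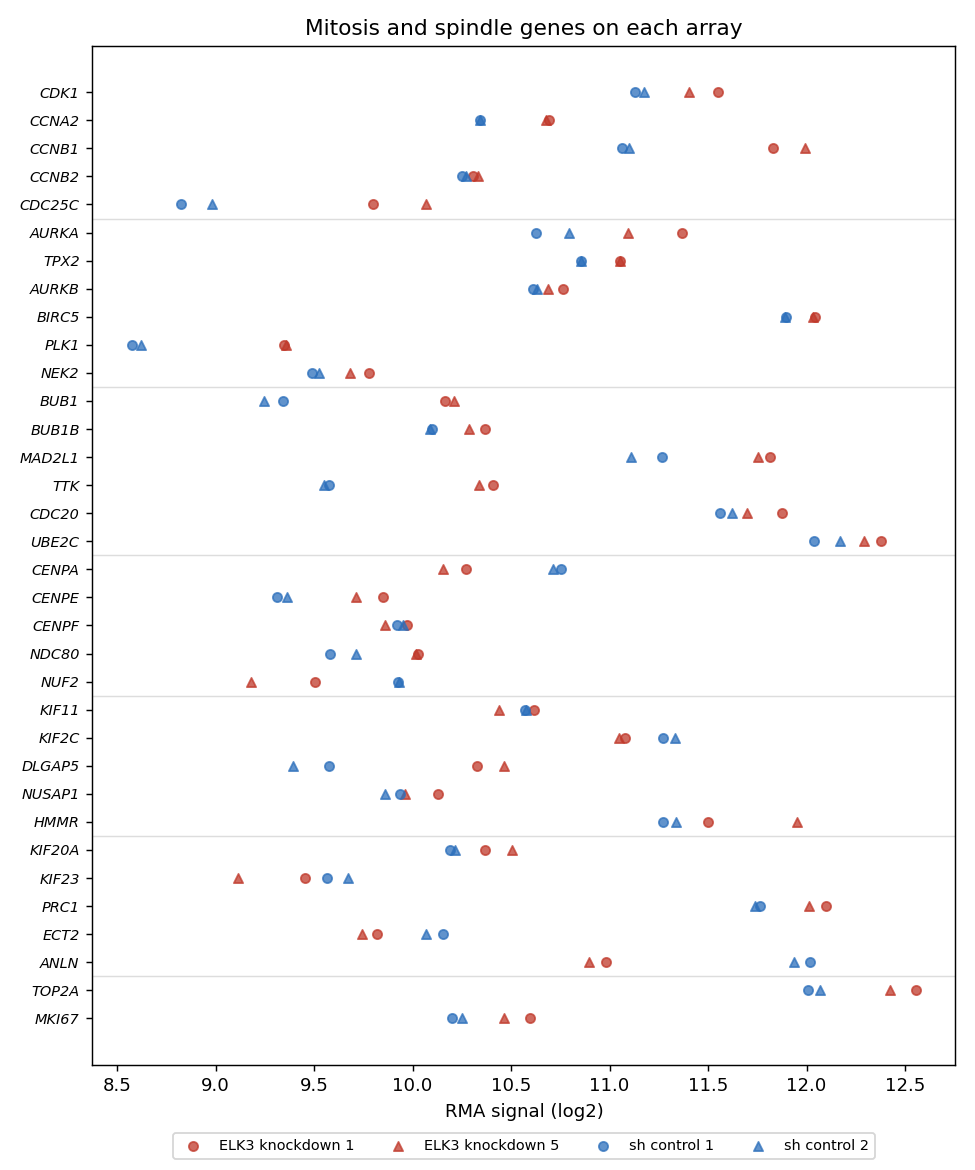
RMA log2 signal (horizontal axis) of each of the 34 measured genes on each array, with ELK3 knockdown arrays in red and sh control arrays in blue, ordered by role with lines between roles. CDC25C, CCNB1, PLK1, BUB1, TTK and DLGAP5 show the widest gaps to the right in the knockdown arrays and ANLN the widest to the left, while CENPF and KIF11 overlap.

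**Figure D2:**
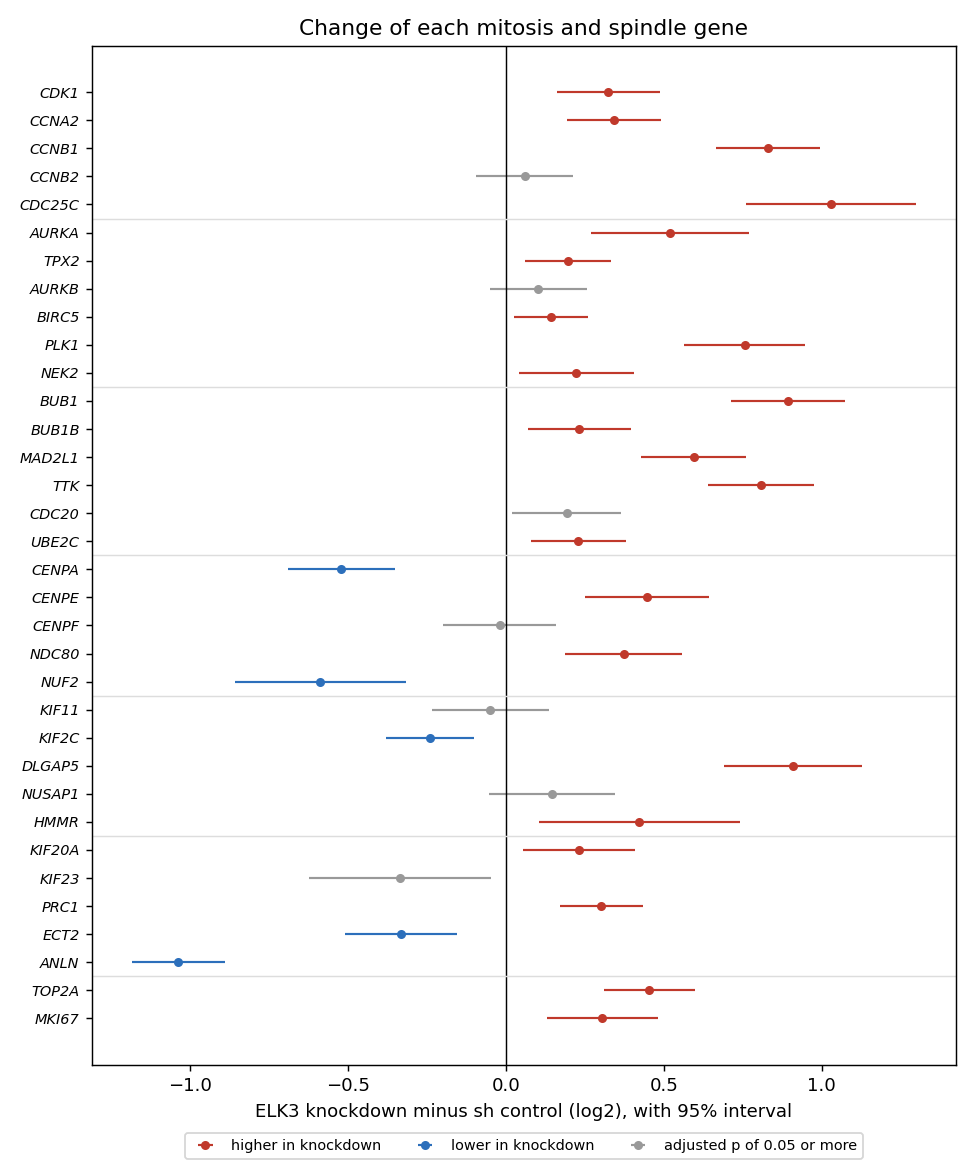
Log2 difference of ELK3 knockdown minus sh control for each gene, with the 95% interval from limma; red passed as higher, blue as lower and grey did not pass. Most points lie right of 0 and between 0 and 1, and the genes left of 0 sit among the kinetochore, motor and cytokinesis genes.

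Promoters were read to see whether genes that moved differently share the motifs named above. Of the 35 genes, 30 had a window from RefSeq, 250 bases before to 50 after the start of the gene, 5 of them more than 1 window. TTTGAA or TTCGAA, on either strand, was found in 67.6% of 37 windows, against 16.4% of all 35116 windows in the table. CCAAT, on either strand, was in 75.7%, against 34.6% of all windows, and at least 2 copies of it in 48.6%, against 10.8%. Both motifs were in 54.1%, against 6.38%. By gene, TTTGAA or TTCGAA was found for 12 of 17 that rose, 4 of 5 that fell and 6 of 7 that did not pass. CCAAT was found for 14 of 17 that rose, 2 of 5 that fell and 7 of 7 that did not pass. Genes of every outcome held these letters. The 5 windows below belong to the 3 genes with the largest and the 2 with the smallest change among those with TTTGAA or TTCGAA. They run 5′ to 3′ along the gene. Capitals mark TTTGAA (read as TTCAAA on the other strand), the palindrome TTCGAA, and the CCAAT box (read as ATTGG on the other strand), and no matches overlap in these windows.
ANLN promoter, GRCh38.p14 chr7:36389612-36389911, plus strand: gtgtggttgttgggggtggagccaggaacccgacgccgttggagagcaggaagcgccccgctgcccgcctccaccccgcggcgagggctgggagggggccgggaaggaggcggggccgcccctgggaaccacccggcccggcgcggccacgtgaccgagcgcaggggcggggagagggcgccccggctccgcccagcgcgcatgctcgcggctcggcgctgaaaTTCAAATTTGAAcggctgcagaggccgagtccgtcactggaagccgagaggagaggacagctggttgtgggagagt
CDC25C promoter, GRCh38.p14 chr5:138331755-138332054, minus strand: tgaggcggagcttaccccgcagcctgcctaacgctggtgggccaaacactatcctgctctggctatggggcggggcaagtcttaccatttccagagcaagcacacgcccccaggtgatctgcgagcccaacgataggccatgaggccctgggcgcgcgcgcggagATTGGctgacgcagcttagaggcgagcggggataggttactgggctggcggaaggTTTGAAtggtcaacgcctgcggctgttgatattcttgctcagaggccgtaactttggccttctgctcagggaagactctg
DLGAP5 promoter, GRCh38.p14 chr14:55191536-55191835, minus strand: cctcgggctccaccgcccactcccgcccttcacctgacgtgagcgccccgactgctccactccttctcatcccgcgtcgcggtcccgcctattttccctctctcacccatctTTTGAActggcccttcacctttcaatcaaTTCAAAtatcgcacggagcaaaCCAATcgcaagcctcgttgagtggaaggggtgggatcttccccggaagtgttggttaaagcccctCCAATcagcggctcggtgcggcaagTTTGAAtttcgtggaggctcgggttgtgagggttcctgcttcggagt
KIF11 promoter, GRCh38.p14 chr10:92592880-92593179, plus strand: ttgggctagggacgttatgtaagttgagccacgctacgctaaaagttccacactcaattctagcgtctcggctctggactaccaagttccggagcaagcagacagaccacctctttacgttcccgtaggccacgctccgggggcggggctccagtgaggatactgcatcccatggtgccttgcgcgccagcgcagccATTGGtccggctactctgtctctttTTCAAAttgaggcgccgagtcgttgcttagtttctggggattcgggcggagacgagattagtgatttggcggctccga
CENPF promoter, GRCh38.p14 chr1:214602945-214603244, plus strand: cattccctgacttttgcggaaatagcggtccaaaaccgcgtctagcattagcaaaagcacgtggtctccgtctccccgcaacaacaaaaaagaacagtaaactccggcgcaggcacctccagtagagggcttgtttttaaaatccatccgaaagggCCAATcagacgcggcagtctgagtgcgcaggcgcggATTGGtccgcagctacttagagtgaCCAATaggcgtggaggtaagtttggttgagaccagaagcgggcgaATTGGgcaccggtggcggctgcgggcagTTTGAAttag
In ANLN, which fell, a match to TTCAAA and another to TTTGAA begin 26 and 20 bases before the start, and no CCAAT was found. CDC25C, which rose, has 2 windows, and the printed one is that with the match nearest the start. It holds TTTGAA 30 bases and ATTGG 85 bases before the start. The other holds TTTGAA 43 bases after its start and 3 CCAAT boxes. DLGAP5, which also rose, holds TTTGAA 138 bases before and 3 bases after the start, TTCAAA 109 bases before it, and CCAAT at 87 and 22 bases before it. KIF11 and CENPF did not pass, and their windows hold both motifs as well. In KIF11, TTCAAA begins 28 bases and ATTGG 53 bases before the start. CENPF has 4 copies of the CCAAT box on either strand, and TTTGAA 40 bases after the start. A match is a description of letters and not of binding.

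The mitotic kinase and its cyclins rose in 4 of 5 genes (80%) and fell in 0, against 41.9% and 27.3% of brighter genes. Here and below, shares of lists this short were not tested against those. CDC25C, the phosphatase that activates CDK1, had 9.80 and 10.07 in the knockdown arrays, against 8.82 and 8.98 in the control arrays. Both knockdown arrays were above both controls, and the rise was 2.04-fold (log2 change 1.03, SE 0.11, adjusted p = 2.21e-04). Its other probe set differed by 1.09. CCNB1, which encodes cyclin B1, the main mitotic partner of CDK1, had 11.83 and 11.99, against 11.06 and 11.10 in the control arrays. That rise was 1.78-fold (log2 change 0.83, SE 0.069, adjusted p = 5.28e-05). CCNB2, the gene for the related cyclin B2, did not move with it: it had 10.30 and 10.33 in the knockdown arrays and 10.25 and 10.27 in the control arrays. Its log2 change was 0.06, with a 95% interval of -0.10 to 0.21 and an adjusted p = 0.494. CCNA2, for the cyclin that acts in S phase and G2, had 10.69 and 10.68 in the knockdown arrays, against 10.34 in both control arrays (log2 change 0.34, adjusted p = 0.00288). Averaging the probe sets of CCNA2 gave 0.19. CDK1 itself had 11.55 and 11.40, against 11.13 and 11.17 in the control arrays (log2 change 0.32, adjusted p = 0.00598). Without control replicate 1 the call of CDK1 was lost, at 0.30 and an adjusted p = 0.0504.

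Of the 6 Aurora, Polo and NEK kinases and their partners, 5 rose (83.3%) and 0 fell, against 41.9% and 27.3% of brighter genes. PLK1, the Polo kinase of spindle poles and kinetochores, led them with 9.35 and 9.36 in the knockdown arrays, against 8.57 and 8.62 in the control arrays. It rose 1.69-fold (log2 change 0.76, SE 0.080, adjusted p = 1.87e-04), and its 3 probe sets all differed upwards. AURKA, the Aurora kinase of centrosomes, had 11.37 and 11.09, against 10.62 and 10.80 in the control arrays (1.43-fold, adjusted p = 0.00495). TPX2, which activates AURKA on spindle microtubules, had 11.05 in both knockdown arrays and 10.85 and 10.86 in the control arrays. The arrays of a group were almost equal, and the rise was small (log2 change 0.20, adjusted p = 0.0253). AURKB, the Aurora kinase of the chromosomal passenger complex, did not pass, with 10.76 and 10.69 in the knockdown arrays and 10.61 and 10.63 in the control arrays (log2 change 0.10, 95% interval -0.05 to 0.26, adjusted p = 0.229). BIRC5, which encodes survivin, its partner in that complex, passed at 0.14 (adjusted p = 0.0455), but averaging its 12 probe sets gave -0.06 and no call, so its direction rests on the probe set. NEK2, a kinase that splits centrosomes, passed at 0.22 (adjusted p = 0.0466). Averaging its 7 probe sets gave NEK2 0.13 and no call. With cross-hybridising ones left out, the brightest remaining probe set gave 0.61, and the others stood at 0.35, 0.17 and -0.21. Without control replicate 1 or 2 the calls of TPX2 (0.20 in each case), BIRC5 (0.15 and 0.14) and NEK2 (0.21 and 0.24) were lost, and that of NEK2 also without knockdown replicate 1 (0.18).

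Spindle checkpoint genes and the destruction machinery they restrain rose in 5 of 6 measured genes (83.3%) and fell in 0. Among brighter genes 41.9% rose and 27.3% fell. BUB1, a checkpoint kinase at kinetochores, had 10.16 and 10.21 in the knockdown arrays, against 9.34 and 9.25 in the control arrays. It rose 1.86-fold (log2 change 0.89, SE 0.076, adjusted p = 5.99e-05). TTK, the MPS1 kinase that starts checkpoint signalling, had 10.41 and 10.34, against 9.58 and 9.55 in the control arrays, a 1.75-fold rise (log2 change 0.81, SE 0.070, adjusted p = 6.82e-05). For both kinases the gap between the groups was many times the gap between arrays of a group. MAD2L1, for the MAD2 protein that binds CDC20, had 11.81 and 11.75 in the knockdown arrays, against 11.27 and 11.11 in the control arrays (1.51-fold, adjusted p = 3.05e-04). Of its 4 probe sets, the 3 bright ones differed upwards by 0.59 to 0.75, and the dim one stood at -0.11. BUB1B, which encodes the checkpoint protein BUBR1, had 10.37 and 10.28, against 10.10 and 10.09 in the control arrays (log2 change 0.23, adjusted p = 0.0263). UBE2C, the ubiquitin-conjugating enzyme of the anaphase-promoting complex, had 12.38 and 12.29, against 12.04 and 12.17 in the control arrays (log2 change 0.23, adjusted p = 0.0201). CDC20, the activator of that complex, had 11.88 and 11.70 in the knockdown arrays and 11.56 and 11.62 in the control arrays. It just missed the threshold (log2 change 0.19, 95% interval 0.02 to 0.37, adjusted p = 0.0624). CDC20 passed at 0.28 without knockdown replicate 5 and was at 0.10, not called, without knockdown replicate 1. Without control replicate 1 the calls of BUB1B (0.24) and UBE2C (0.16) were lost. BUB1B was also not called without control replicate 2, at 0.23.

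Centromere and kinetochore genes went both ways, with 2 of 5 higher and 2 lower (40% each), against 41.9% and 27.3% of brighter genes. NDC80 and NUF2 encode partners in the 4-subunit complex that ties kinetochores to microtubules, and they parted. NDC80 had 10.03 and 10.02 in the knockdown arrays, against 9.58 and 9.72 in the control arrays (log2 change 0.37, SE 0.078, adjusted p = 0.00573). NUF2 had 9.51 and 9.18, against 9.93 in both control arrays (log2 change -0.59, SE 0.11, adjusted p = 0.0039). Each has a single probe set, so neither value could be set against another. The genes for the other subunits were on a list of kinetochore genes: SPC25 rose 2.43-fold, while SPC24 did not pass, at 0.22. CENPA, the histone variant that marks centromeres, had 10.27 and 10.15 in the knockdown arrays, against 10.76 and 10.71 in the control arrays. It fell 1.43-fold (log2 change -0.52, SE 0.071, adjusted p = 6.81e-04), and all 4 of its probe sets were lower, by -0.49 to -0.83. CENPE, a kinesin that carries chromosomes to the spindle equator, had 9.85 and 9.71, against 9.31 and 9.36 in the control arrays (log2 change 0.45, adjusted p = 0.00311). CENPF, a large kinetochore protein of G2 and mitosis, had 9.97 and 9.86 in the knockdown arrays and 9.92 and 9.95 in the control arrays. The groups overlapped, and the 95% interval of its change was -0.20 to 0.16 (adjusted p = 0.863). Its other, dimmer probe set stood at -0.38, with 7.70 and 8.38 in the knockdown arrays and 8.47 and 8.37 in the control arrays. Without control replicate 1 the call of NDC80 was lost, at 0.31.

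Among 5 spindle motors and microtubule proteins, 2 rose (40%), 1 fell (20%) and 2 did not pass. The shares of brighter genes were 41.9% higher and 27.3% lower. DLGAP5, a protein that bundles kinetochore fibres, had 10.33 and 10.46 in the knockdown arrays, against 9.58 and 9.39 in the control arrays. It rose 1.88-fold (log2 change 0.91, SE 0.092, adjusted p = 1.46e-04), and its other probe set differed by 0.88. HMMR, a spindle protein first known as a hyaluronan receptor, had 11.50 and 11.95, against 11.27 and 11.34 in the control arrays (log2 change 0.42, SE 0.13, adjusted p = 0.0345). Its size depended on the array: it was 0.65 without knockdown replicate 1 and 0.20 without knockdown replicate 5, and it was not called without control replicate 1, at 0.39. KIF2C, a kinesin that takes microtubules apart at kinetochores, had 11.08 and 11.05 in the knockdown arrays, against 11.27 and 11.33 in the control arrays (log2 change -0.24, adjusted p = 0.0116). It did not pass when control replicate 1 (-0.27) or control replicate 2 (-0.21) was left out. KIF11, the motor that pushes spindle poles apart, had 10.61 and 10.44 in the knockdown arrays and 10.57 and 10.58 in the control arrays, with a 95% interval of -0.23 to 0.14 (adjusted p = 0.651). NUSAP1, which anchors spindle microtubules near chromatin, did not pass either (log2 change 0.15, 95% interval -0.05 to 0.35, adjusted p = 0.193). NUSAP1 passed without knockdown replicate 5, at 0.23, and was at 0.06, not called, without knockdown replicate 1.

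Midzone and cytokinesis genes also went both ways, with 2 of 5 higher and 2 lower (40% each), a median of -0.33. Of the brighter genes 41.9% were higher and 27.3% lower, with a median of 0.12. ANLN encodes anillin, the scaffold that joins RhoA, actin and septins in the cleavage furrow. It had 10.98 and 10.90 in the knockdown arrays, against 12.02 and 11.94 in the control arrays. It fell 2.05-fold (log2 change -1.04, SE 0.062, adjusted p = 1.12e-05), and its other 3 probe sets were lower by -1.20 to -1.38. ECT2, the exchange factor that activates RhoA at the furrow, had 9.82 and 9.74 in the knockdown arrays, against 10.15 and 10.07 in the control arrays (log2 change -0.33, adjusted p = 0.00818). KIF23, the kinesin that recruits ECT2 together with RACGAP1, had 9.45 and 9.11, against 9.57 and 9.67 in the control arrays. It missed the threshold (log2 change -0.33, 95% interval -0.62 to -0.05, adjusted p = 0.0557) and passed at -0.51 without knockdown replicate 1, while it was -0.16 and not called without knockdown replicate 5. RACGAP1 and RHOA were on another list and did not pass, at 0.03 and -0.05. PRC1, which bundles antiparallel microtubules of the midzone, had 12.10 and 12.01 in the knockdown arrays, against 11.76 and 11.74 in the control arrays (log2 change 0.30, adjusted p = 0.00296). That rise rests on the probe set. It was 0.16 with the mean of 4 probe sets and 0.04 at the brightest one not marked as cross-hybridising, and passed in neither case. Others without that mark stood at 0.30 and -0.01. KIF20A, a kinesin that brings AURKB and PLK1 to the midzone, had 10.37 and 10.51, against 10.19 and 10.22 in the control arrays (log2 change 0.23, adjusted p = 0.0359). Without control replicate 1 the calls of ECT2 (-0.29) and KIF20A (0.22) were lost, and that of KIF20A also without control replicate 2 (0.25).

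Both genes of chromosome structure and surface rose, against 41.9% of brighter genes. TOP2A, the topoisomerase that untangles sister chromatids, had 12.56 and 12.43 in the knockdown arrays, against 12.01 and 12.07 in the control arrays (1.37-fold, SE 0.061 on the log2 scale, adjusted p = 6.02e-04). Its 3 probe sets differed upwards by 0.41 to 0.54. MKI67, which encodes Ki-67, a coat of mitotic chromosomes used to score proliferation, had 10.60 and 10.46, against 10.20 and 10.25 in the control arrays (log2 change 0.31, adjusted p = 0.0113). With the mean of 6 probe sets MKI67 stood at 0.17 and did not pass. It was also not called without control replicate 1 (0.28) or control replicate 2 (0.33).

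The probe sets of a gene mostly told the same direction. Of the 34 genes, 22 had more than 1 probe set. For 15 of the 22 all probe sets differed the same way, and for 7 they did not. The 7 were BIRC5, NEK2, MAD2L1, CDC20, KIF11, NUSAP1 and PRC1. Over all 92 probe sets of these genes the differences ran from -1.38, in ANLN, to 1.09, in CDC25C.

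**Figure D3:**
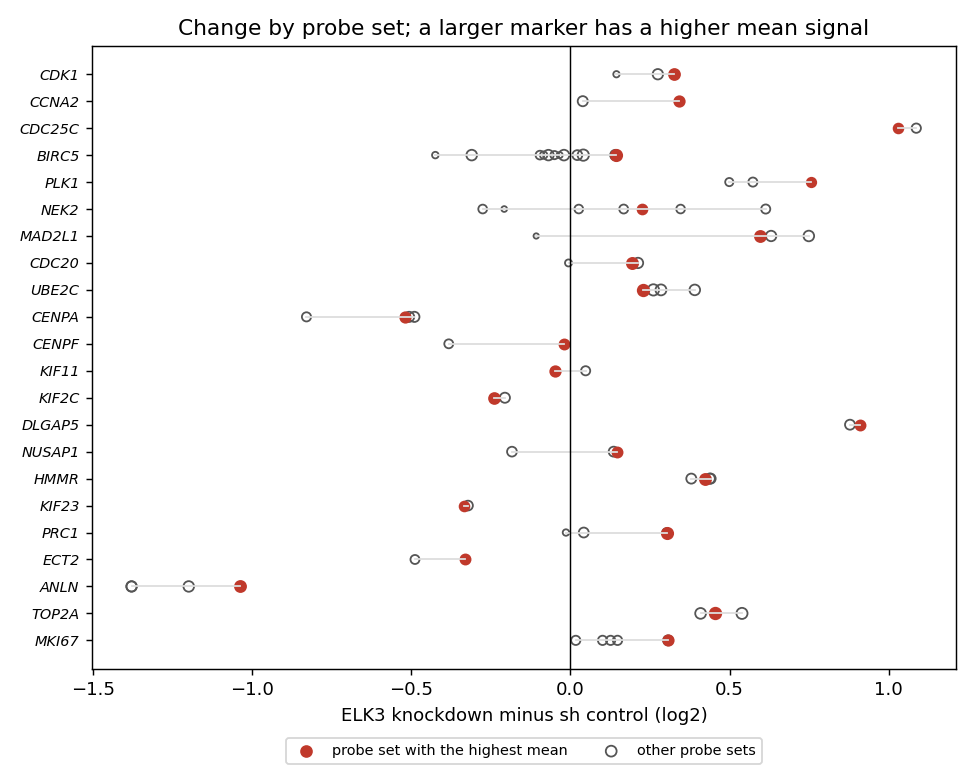
Log2 difference of ELK3 knockdown minus sh control for every probe set of the 22 genes with more than 1, with the probe set used for the gene in red and the others open; larger markers have a higher mean signal. The probe sets of ANLN, CENPA, CDC25C, DLGAP5, PLK1 and TOP2A stay on a single side of 0, and those of BIRC5 and NEK2 lie on both.

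Regulators that act on these promoters were read as a further list. Of 16 genes for MuvB subunits, MYBL2, FOXM1, E2F partners and NF-Y, 9 rose (56.2%) and 2 fell (12.5%), with a median of 0.34. The brighter genes rose in 41.9% and fell in 27.3%, with a median of 0.12. The share called, 68.8%, was near the 69.3% of brighter genes, and 7 rose without control replicate 1 and 6 without control replicate 2. MYBL2, the activator that replaces the repressors on MuvB, had 10.32 in both knockdown arrays, against 9.49 and 9.47 in the control arrays (1.79-fold, adjusted p = 4.93e-05). FOXM1, which then drives the late genes, had 10.01 and 9.94, against 9.62 and 9.68 in the control arrays (log2 change 0.32, adjusted p = 0.00805). The call of FOXM1 did not hold when control replicate 1 (0.30) or control replicate 2 (0.35) was left out, and averaged probe sets gave 0.21. TFDP2, a dimer partner of E2F factors, rose 3.31-fold, the MuvB histone chaperone gene RBBP4 1.70-fold and the repressive E2F gene E2F5 1.64-fold. NFYB (0.61), TFDP1 (0.47), LIN52 (0.41) and NFYC (0.36) rose as well. LIN52 did not pass when knockdown replicate 5 (0.29) or control replicate 2 (0.33) was left out, when probe sets were averaged (0.29), or when cross-hybridising ones were dropped (0.18). NFYC did not pass when control replicate 1 (0.40) or control replicate 2 (0.33) was left out, or when cross-hybridising probe sets were dropped (0.24). LIN37, a MuvB subunit needed for repression, fell (-0.72), as did RBL1, the p107 pocket protein (-0.50, or -0.28 over averaged probe sets).

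Other genes of the pathway included larger changes. Over 7 lists of 129 measured mitosis genes beside the 34, 63 rose, 25 fell and 41 did not pass, with 68.2% called, near the 69.3% of brighter genes. By direction 48.8% rose and 19.4% fell, against 41.9% and 27.3% of the brighter genes. A change over 2-fold was found for 22, or 17.1%, against 17.7% of all genes and 23.2% of the brighter ones. Control genes of entry into mitosis rose in 8 of 12 and fell in 2, or 1 without either control array in turn. Among them ENSA, an inhibitor of the phosphatase PP2A, rose 3.45-fold, CDC25A 2.34-fold, the cyclin F gene CCNF 2.21-fold and WEE1, the kinase that opposes CDC25 on CDK1, 2.15-fold. Averaged probe sets gave a log2 change of 0.29 for ENSA. Anaphase-promoting complex genes rose in 12 of 17 and fell in 1, with ANAPC2 (2.38-fold), ANAPC10 (2.11-fold), ANAPC16 (2.09-fold) and CDC26 (1.92-fold) in front. On the entry list 66.7% rose and 16.7% fell, and on this list 70.6% and 5.88%, against 41.9% and 27.3% of brighter genes. For ANAPC2, averaged probe sets gave 0.77 on the log2 scale. Without knockdown replicate 1 the number that fell was 3.

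Chromosome-holding complexes were mixed. Condensin subunits rose in 4 of 8 and fell in 2: NCAPD3 rose 2.73-fold, SMC2 2.40-fold and NCAPH by 0.30, while SMC4, the partner of SMC2, fell by 0.34 on the log2 scale. NCAPH was not called without control replicate 1 (0.32) or control replicate 2 (0.28), nor over averaged probe sets (0.11). Without either control in turn, the list's counts were 2 higher and 1 lower. Cohesin and separation genes rose in 8 of 14 and fell in 3, or 5 without knockdown replicate 1. The cohesin subunit genes STAG2 and SMC1A rose 3.21-fold and 2.36-fold and ESPL1, the separase gene, 2.57-fold, while SGO2, a protector of cohesin, fell by 0.92. Over averaged probe sets ESPL1 stood at 0.71 on the log2 scale. Among condensin genes 50% rose and 25% fell, and among cohesin genes 57.1% and 21.4%, against 41.9% and 27.3% of brighter genes.

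Further kinetochore and checkpoint genes were evenly divided, with 12 of 34 higher and 12 lower and a median of 0.06. That is 35.3% in each direction, against 41.9% higher and 27.3% lower among the brighter genes. MAD1L1, the gene for the MAD1 protein that loads MAD2 at kinetochores, had 8.02 and 7.90 in the knockdown arrays, against 10.24 and 10.28 in the control arrays. It was 4.91-fold lower (adjusted p = 1.26e-06), a larger change than that of any of the 34. SKA3, of the complex that helps NDC80 hold microtubules, was 2.44-fold lower, and the kinetochore gene PMF1 rose 2.41-fold. Further spindle and cytokinesis genes rose in 10 of 28 and fell in 3, or 4 and 1 without control replicate 1. In the main fit 35.7% of that list rose and 10.7% fell, against 41.9% and 27.3% of the brighter genes. CKAP5, a microtubule polymerase, rose 2.50-fold. HAUS1 rose and HAUS8 fell, at 0.82 and -0.85, though both belong to the augmin complex that branches microtubules. KIF15, a kinesin that can stand in for KIF11, was at -0.75, with -0.42 without knockdown replicate 5 and -0.65 and no call without control replicate 1. DNA replication genes, which are expressed earlier in the cycle, rose in 15 of 36 and fell in 7, with a median of 0.11. The share that rose, 41.7%, was near the 41.9% of brighter genes, and 19.4% fell, against 27.3%. RRM2, a subunit of ribonucleotide reductase, was 2.78-fold lower and POLA1, of DNA polymerase alpha, 2.76-fold higher. ORC4 (1.91-fold) and ORC3 (1.90-fold), of the origin recognition complex, followed. The number of replication genes that fell was 4 without either control array in turn. No test was made between lists.

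**Figure D4:**
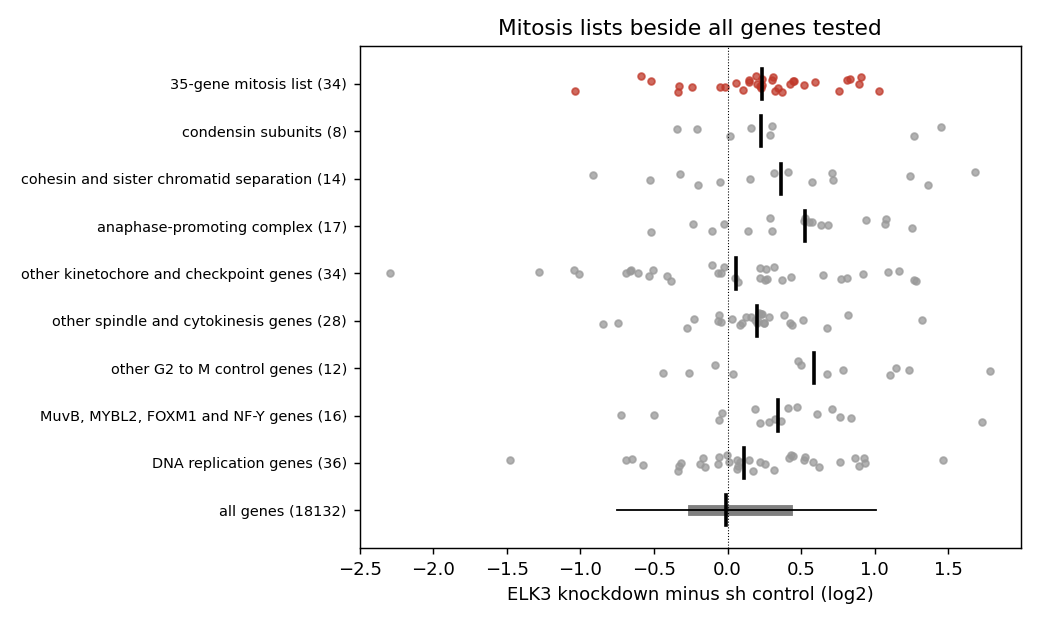
Log2 difference of ELK3 knockdown minus sh control for each gene of the 35-gene list (red, 34 measured) and of 8 further lists (grey), with black bars at medians; the lowest row gives all 18132 genes with the thick line from the 25th to the 75th percentile (-0.23 to 0.40) and the thin line from the 10th to the 90th (-0.75 to 1.01). The 34 genes stay between -1.04 and 1.03, and single genes of the grey lists lie beyond them.

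The spread between arrays was wider for the knockdown group. For the 34 genes the median absolute difference between the knockdown arrays was 0.105, against 0.047 between the control arrays. It was larger between the knockdown arrays for 25 of 34 genes, or 73.5%, against 58.0% of all genes. Over all genes these medians were 0.114 and 0.083. The sign of this difference was that of the median over neighbouring bright genes (25 on each side) for 27 of 34 genes, with ANLN, TOP2A, BUB1 and CCNB2 among the 7 others. Also among the 7 were PRC1 and BIRC5, whose neighbours' medians rounded to 0, and TPX2, whose own difference did. Most of the 34 differences and most of the neighbours' medians were negative, so many signs would match without any local link. The same share over all genes was not computed. All 4 measured genes on chromosome 5 were higher in knockdown replicate 5 than in replicate 1: HMMR by 0.45, CDC25C by 0.27, CCNB1 by 0.16 and KIF20A by 0.14. On the other chromosomes 4 of 30 were, with TPX2, higher by 0.0006, counted as equal. Bright here means a mean above 6.78 in each group, with the mitotic genes of the list left out. Of the 435 such genes on chromosome 5, 83.4% were higher in replicate 5, with a median of 0.161. The neighbours' medians ran from 0.15 around HMMR to 0.19 around CDC25C and KIF20A. DLGAP5, on chromosome 14, differed by 0.14, and its neighbours had a median of 0.16. KIF23 (-0.34), NUF2 (-0.32) and AURKA (-0.28) differed most in the other direction, while their neighbours had medians of -0.06, -0.03 and -0.04. The same neighbourhoods also differed between the groups, with medians of knockdown minus control from -0.44 around CENPA to 0.63 around TTK. For 8 of 34 genes the neighbours' median had the opposite sign or, for AURKB, rounded to 0. NUF2 was among them, and its neighbours stood at 0.57. The part of the neighbourhood in each gene's change was not tested.

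**Figure D5:**
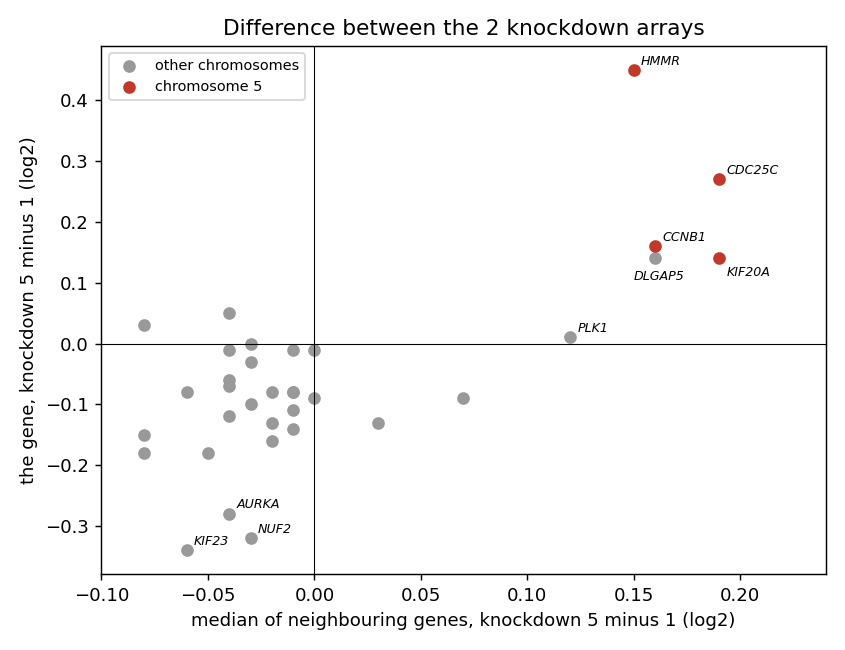
Difference between the 2 knockdown arrays (replicate 5 minus replicate 1, log2) of each gene on the vertical axis, against the median of the same difference in up to 50 neighbouring bright genes on the horizontal axis. The 4 genes of chromosome 5 (red) lie at the upper right, and KIF23, NUF2 and AURKA lie lowest with neighbours near 0.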

How the data were processed

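The deposited table holds log2 signals for 49293 probe sets on each array. The submitters' processing notes name RMA, with no version or steps given. Arrays have no read depth, and RMA gives no call above background. Names came from the platform annotation (44988 with a single symbol, 1832 with several, 2473 unnamed), and each of 18132 genes was read from the single-symbol probe set with the highest mean over the 4 arrays. Both groups entered a limma 3.58.1 fit under R 4.3.3 (lmFit, eBayes with an intensity trend, two-sided, Benjamini-Hochberg over all genes, threshold 0.05; 2 residual and 4.83 prior degrees of freedom). The code of the fit was run on simulated data with independent noise and far fewer changed genes than here, which does not bear on the calls reported. An exact permutation test of 2 arrays against 2 cannot give a p below 0.333. Intervals are 95% limits from the same fit. Named beside the 35 genes are up to 4 called genes with the largest change per pathway list and all called genes of the MuvB list; SPC24, RACGAP1 and RHOA were named after their values were seen. The genes and lists were chosen with earlier results of these data known. Promoter sequences and chromosomes come from RefSeq, GRCh38.p14. Alternatives changed the moderation, the choice of probe set, the dim-gene filter, the scaling, the threshold and the arrays used. With cross-hybridising probe sets left out, each gene was read from its brightest remaining one. Plots used matplotlib 3.10.9 (Python 3.11.15).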

Additional observations from a re-analysis of the deposited data

How the results depend on the processing

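Over 13 changes of the fit, the probe set, the scaling and the arrays used, 6 of the 27 called genes of the list passed in the same direction in all that gave a value: CCNA2, CCNB1, PLK1, BUB1, TTK and ANLN (TTK has no value with cross-hybridising probe sets left out). Of 440 such values for the 34 genes, 56 lost a call, 8 gained it and 3 turned sign: BIRC5 over averaged probe sets (-0.06), and CENPF and KIF11, which were not called, on leaving out an array (CENPF -0.08 to 0.04, KIF11 -0.14 to 0.04, each highest without knockdown replicate 5); the cause was not tested. The 22 genes that rose and 5 that fell became 7 and 1 with no moderation, which leaves 2 degrees of freedom, and 7 and 2 by a fold over 1.5 with an unadjusted p under 0.05; 14 rose at an adjusted p under 0.01. With no intensity trend 15 rose and 5 fell. Under quantile normalisation BIRC5, NEK2 and KIF20A did not pass, while CDC20 and KIF23 did. Leaving out an array gave 12 to 24 higher and 3 to 6 lower; the lone array of a group was then assumed to vary like the other group. Over all genes, 5354 higher and 3865 lower became 2926 and 2165 with no moderation and 3469 and 2284 by that fold and p. In the 8 further lists, 78 higher and 32 lower became 45 and 20, and 42 and 15. No paired analysis was possible because the groups share only a single replicate number, 1. With 2 arrays a group, small changes near the threshold depend on the variance borrowed from other genes. Where a control array is left out, each gene's own spread comes from the knockdown pair alone, which is mostly the wider one. Where a knockdown array is left out, it comes from the control pair alone. A call can thus be lost while the change stays, as for TPX2 at 0.20 without either control array.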
